A study of Mus musculus with 4 samples.

Results

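Dual-gate cells were cell barcodes that carried transcripts of nephron and of kidney stroma together. A barcode was taken when mitochondrial genes made up at most 10% of its UMIs (counted transcript tags), when Lhx1, Wnt4, Pax8, Pax2 and Emx2 together gave at least 2 UMIs, and when Col1a2, Col3a1, Dcn, Postn and Lum together gave at least 3 UMIs. Of 12399 barcodes within the mitochondrial limit, 505 met both conditions, here called the nephron gate and the stroma gate. A further 2924 passed the nephron gate only and 4246 the stroma gate only, and these single-gate classes are the comparison. The series profiled kidneys of mouse embryos at E14.5 by Drop-seq, a droplet method that reads the 3' ends of transcripts. It comprised 2 libraries from kidneys labelled -/- for Hoxd9, Hoxd10, Hoxd11, Hoxa9, Hoxa10 and Hoxa11, and 2 from wildtype kidneys, all on a mixed background of mostly CD-1 and 129. The title of the series concerns cells that do not keep to one lineage when Abd-B Hox function is reduced, so a barcode with RNA of both lineages bears on its question. The labels do not say whether a library came from 1 animal or several, so p-values reflect library-to-library spread alone, and that spread could be technical.

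In the developing kidney, the mesenchyme divides early into nephron progenitors and stromal progenitors. The nephron lineage condenses, turns on Wnt4, Pax8 and Lhx1, and forms an epithelium that becomes podocytes and tubules. The stromal lineage stays mesenchymal, surrounds the nephrons and lays down fibrillar collagen and small proteoglycans. Pax2 and Emx2 are transcription factors of the nephron lineage and of the ureteric bud. Col1a2 and Col3a1 encode fibrillar collagen chains, Dcn and Lum small proteoglycans, and Postn a matricellular protein.

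The libraries differed before any gate was set. Mutant libraries held 853 and 4557 barcodes within the mitochondrial limit, and wildtype libraries 1949 and 5040, with median depths of 2465 and 3003 UMIs against 3597 and 3475.5 UMIs. Barcodes over the limit were 19.6% and 29.1% of the mutant libraries and 7.76% and 9.06% of the wildtype libraries. Xist, the X-inactivation transcript of females, was seen in 65.4% of mutant 1 barcodes and at least 1 of 4 Y-linked genes in 1.88%, while wildtype 1 gave 0.359% and 49.2%, so these libraries were nearly of one sex each and of opposite sex. Mutant 2 and wildtype 2 held both. Only 3 of all 15144 barcodes were found in more than 1 library, and none of the 505 dual-gate cells was.

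Most members sat close to the gates. Of the 505 dual-gate cells, 179 (35.4%) had exactly 2 nephron-gate UMIs, 105 (20.8%) had exactly 3 stroma-gate UMIs and 29 had both minimum values. At the strong end, 80 cells (15.8%) had at least 5 nephron-gate and at least 10 stroma-gate UMIs. Just outside lay 608 stroma-gate cells with 1 nephron-gate UMI and 233 nephron-gate cells with 2 stroma-gate UMIs. The median dual-gate cell carried 3.5 and 3 nephron-gate UMIs in the mutant libraries and 3 and 4 in the wildtype libraries, and 12 and 10 stroma-gate UMIs against 9 and 6.

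The cells were chosen by UMIs of the gate genes, so levels of these genes, and of any gene set against the single-gate classes, are given as a description. Col1a2 (chromosome 6, 4504814 to 4541544, mm10) was seen in 90.0% and 94.7% of dual-gate cells of mutants 1 and 2 and in 92.7% and 90.5% of those of wildtypes 1 and 2. Its level was 1787 and 1838 CPM (counts per 1e6 UMIs of the class) in mutant and 875 and 392 CPM in wildtype dual-gate cells, each between the stroma-only level and the nephron-only level of its library. Stroma-only cells gave 6007 and 5204 CPM in the mutant and 3210.5 and 1174 CPM in the wildtype libraries, and nephron-only cells gave 50.6 and 46.8 CPM against 24.3 and 18.2 CPM.

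On the nephron side, Lhx1 (chromosome 11, 84518284 to 84525535), a factor of induced nephrons, stood at 229 and 319 CPM in mutant and at 332 and 166 CPM in wildtype dual-gate cells, and genotypes overlapped. Pax8 gave 81.6 and 149 CPM against 63.2 and 85.8 CPM, and Pax2 gave 171 and 115 CPM against 177 and 198 CPM. No single nephron gene made the class: Pax2 alone carried 3, 5, 11 and 32 cells through the gate in mutant 1, mutant 2, wildtype 1 and wildtype 2, Lhx1 alone 0, 21, 4 and 6, and Wnt4 alone 0, 15, 3 and 8. Wnt4 is also made by medullary stroma. With a nephron gate without it, dual-gate cells were 20.5% and 18.3% of nephron-gate cells in the mutants and 9.04% and 12.2% in the wildtypes.

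Dual-gate cells took a larger part of the nephron-gate cells in mutant than in wildtype libraries. They were 40 of 199 (20.1%) and 209 of 1011 (20.7%) nephron-gate cells in the mutant libraries, against 55 of 606 (9.08%) and 201 of 1613 (12.5%) in the wildtype libraries. The exact (Clopper-Pearson) 95% intervals ran from 14.8% to 26.3% and from 18.2% to 23.3% in the mutants, against 6.91% to 11.6% and 10.9% to 14.2% in the wildtypes, and cover counting error only. The mean was 20.4% ± 0.405 in mutant and 10.8% ± 2.39 in wildtype libraries (SD, n = 2 each), a ratio of 1.89. The libraries did not overlap, and the exact two-sided permutation p was 0.333, the smallest that 2 against 2 libraries can give.

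Among stroma-gate cells the order was not the same. Dual-gate cells were 8.79% and 8.13% of stroma-gate cells in the mutants and 9.12% and 17.9% in the wildtypes. The libraries did not overlap here either, with both mutants below both wildtypes. The exact two-sided permutation p was again the smallest possible, 0.333. Wildtype 2 alone was high, and the mutant mean minus the wildtype mean was -5.05 percentage points with it and -0.659 without it. Of all cells within the mitochondrial limit, dual-gate cells made up 4.69% and 4.59% in the mutant and 2.82% and 3.99% in the wildtype libraries. Cell numbers of dual-gate cells that failed the endothelium gate, tested beside the other gate combinations with edgeR's quasi-likelihood test, stood at 0.42 on the log2 scale, mutant over wildtype (SE 0.34, Benjamini-Hochberg adjusted p = 0.367).

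The gates themselves differed in how many cells passed them. The stroma gate was passed by 53.3% and 56.4% of mutant cells and by 30.9% and 22.3% of wildtype cells, and the nephron gate by 23.3% and 22.2% against 31.1% and 32.0%. In the same edgeR test, stroma-only cells had a log2 fold change of 1.11 and nephron-only cells of -0.63, both with an adjusted p of 0.0343. The nephron-only change was -0.18 at 2000 UMIs (adjusted p = 0.4001) and -0.08 at 1000 UMIs (adjusted p = 0.731), and it did not pass without any one of the 4 libraries (adjusted p from 0.0770 to 0.166). The stroma-only change passed at both depths, but not without mutant 1 (adjusted p = 0.174) or mutant 2 (adjusted p = 0.166), and neither change passed with a replicate block (adjusted p = 0.0899 for stroma-only and 0.477 for nephron-only cells). The part of the larger stromal gate in the higher mutant share was not tested.

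When every cell was thinned to 2000 UMIs, dual-gate cells were 10.0% and 9.29% of nephron-gate cells in the mutants and 3.83% and 4.18% in the wildtypes. Thinning left out 351 and 1638 mutant and 504 and 1674 wildtype cells with fewer UMIs. At that depth the edgeR test of cell numbers gave 1.15 on the log2 scale, with an SE of 0.23 and an adjusted p of 0.0214, while at 1000 UMIs it gave 1.78 with an SE of 0.68 and did not pass (adjusted p = 0.113). Thinned to 1000 UMIs, the share of nephron-gate cells was 6.56% and 8.36% against 3.73% and 1.34%, from 4 and 29 mutant and 6 and 5 wildtype cells.

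**Figure D1:**
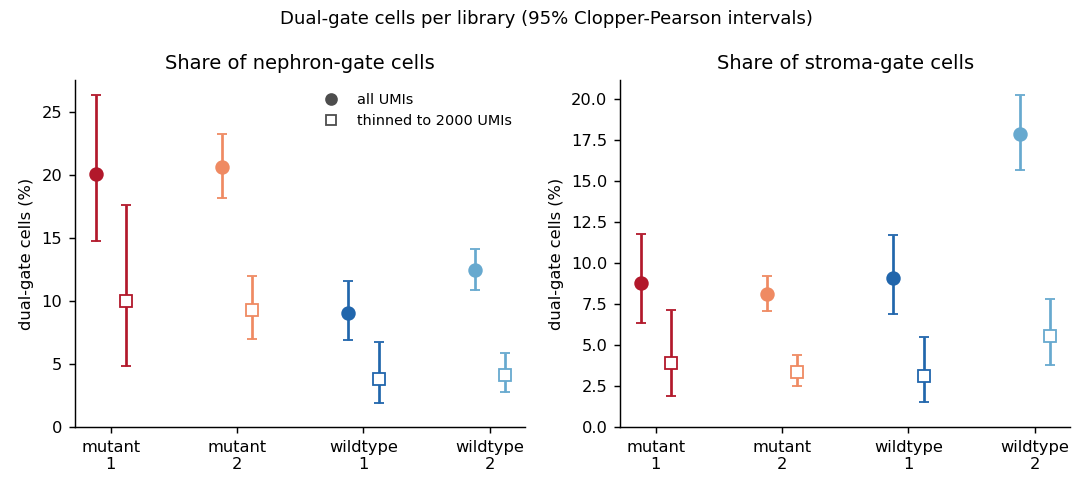
Dual-gate cells as a percentage of nephron-gate cells (left) and of stroma-gate cells (right) in each library, at all UMIs (filled circles) and after thinning to 2000 UMIs (open squares); bars are 95% Clopper-Pearson intervals. On the left both mutant libraries, at 20.1% and 20.7%, lie above both wildtype libraries, at 9.08% and 12.5%, and on the right wildtype 2 stands alone at 17.9%.

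Dual-gate cells were deep. Their median was 6734 and 5255 UMIs in the mutant and 8461 and 10028 UMIs in the wildtype libraries. Nephron-only cells had medians of 4575 and 4975.5 UMIs against 5846 and 6132, and stroma-only cells 2386 and 2785 against 2958.5 and 3391. The dual-gate median was thus 1.47 and 1.06 times the nephron-only median in the mutants and 1.45 and 1.64 times in the wildtypes, with mutant 2 the only library in which the medians were close. Set against the sum of both single-gate medians, the dual-gate median was 0.967 and 0.677 of it in the mutants and 0.961 and 1.05 of it in the wildtypes. A gate on UMIs favours deep barcodes by its making, so these depths are a description.

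Within strata of depth the result was mixed at the low end. Standardised to the pooled depths of nephron-gate cells, with bounds at 2000, 4000, 8000 and 16000 UMIs, it was 21.8% and 21.2% in the mutants and 9.14% and 11.7% in the wildtypes. Below 2000 UMIs the genotypes overlapped, with 3 of 39 (7.69%) and 37 of 150 (24.7%) in the mutants against 4 of 43 (9.30%) and 7 of 134 (5.22%) in the wildtypes. Above 16000 UMIs the share was 50% (7 of 14) and 32.1% in the mutants and 21.3% and 31.7% in the wildtypes, so mutant 2 and wildtype 2 were nearly level there. In the 3 strata between, both mutant libraries were above both wildtype libraries. Of the dual-gate barcodes of mutant 2, 25.4% ended in an undetermined base, against 17.3% of its barcodes within the mitochondrial limit, and without such barcodes the share was 21.3% and 20.03% in the mutants and 8.84% and 12.3% in the wildtypes.

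**Figure D2:**
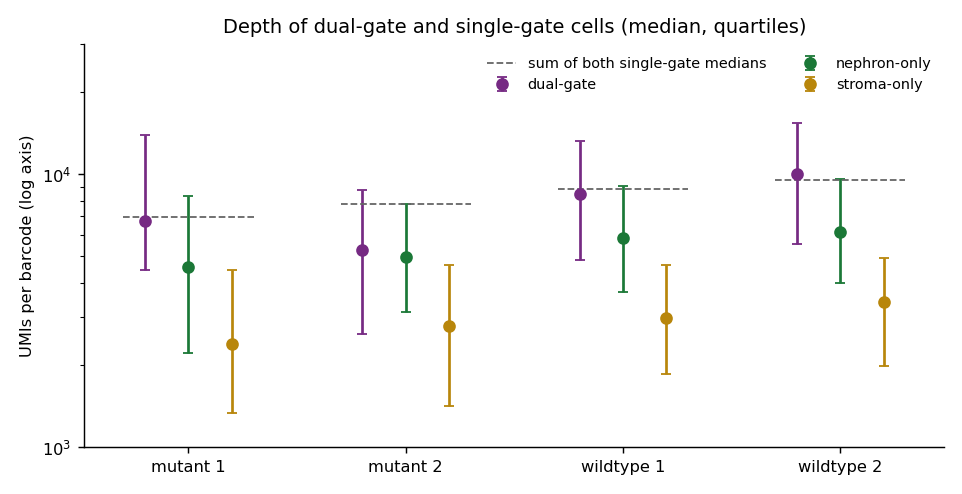
UMIs per barcode (log axis) in dual-gate, nephron-only and stroma-only cells of each library; points are medians, bars run from the lower to the upper quartile, and dashed lines mark the sum of both single-gate medians. Dual-gate medians lie near the dashed line in mutant 1, wildtype 1 and wildtype 2, and at 5255 UMIs below it in mutant 2.

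The endothelium, a lineage apart from both, served as a control pairing. Its gate genes were Pecam1, a junction protein, Cdh5, the cadherin of vessels, and Kdr, a VEGF receptor. Cells with at least 2 UMIs of these genes numbered 39 and 428 in the mutants and 126 and 212 in the wildtypes. The nephron gate was also passed by 0 and 14 of them in the mutants and by 7 and 16 in the wildtypes, and the stroma gate by 0 and 58 against 4 and 16. The 0 of 39 in mutant 1 allow a share of up to 7.69%, taken as 3 counts over those cells, so this library says little on the control.

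Divided by the number that the product of the gate shares gives, dual-gate cells stood at 0.377 and 0.367 in the mutants and at 0.293 and 0.559 in the wildtypes. The nephron and endothelium pair stood at 0 and 0.147 in the mutants and at 0.179 and 0.236 in the wildtypes, and the stroma and endothelium pair at 0 and 0.240 against 0.103 and 0.339. The gates differ in their minimum and in their genes' abundance. At all UMIs, the nephron and stroma pair had the higher ratio in each of the 4 libraries. At 2000 UMIs its ratio was 0.198 and 0.179 in the mutants and 0.156 and 0.260 in the wildtypes, and that of the nephron and endothelium pair 0 and 0.0372 against 0.0671 and 0.124. At 1000 UMIs the nephron and endothelium pair was higher in the wildtypes, at 0.222 and 0.159 against 0.180 and 0.118 for nephron and stroma. It rested there on 1 cell in each wildtype library, and it was the lower pair in both mutants. The mutant ratios for nephron and stroma did not stand above the wildtype ones, unlike the share of nephron-gate cells.

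Cells outside both lineages gave a background for the gates, in which free RNA and doublets cannot be told apart. Of 212 cells with at least 2 UMIs of macrophage genes (median 2465.5 UMIs), 2.83% passed the nephron gate, 6.60% the stroma gate and 0 both. Of 805 endothelium-gate cells (median 4339 UMIs), 4.60% passed the nephron gate, 9.69% the stroma gate and 13 both. Of 118 erythroid barcodes, with haemoglobin at 20% or more of UMIs (median 5578.5 UMIs), 11.9% passed the nephron gate, 23.7% the stroma gate and 1 both. These pooled values rest unevenly on the libraries, since 101 of the erythroid barcodes came from wildtype 2, where 19.8% passed the stroma gate. Endothelium-gate cells passed the stroma gate at 0 of 39 and 13.6% in the mutants and at 3.17% and 7.55% in the wildtypes. By library, the stroma gate was passed by 0 and 5 macrophage-gate cells of 24 and 70 in the mutants and by 1 and 8 of 32 and 86 in the wildtypes.

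In the libraries of both sexes, a barcode with Xist and a Y-linked gene holds RNA of a female and of a male. In mutant 2, 34 of 209 dual-gate cells (16.3%) held Xist and a Y-linked gene, against 2.62% of nephron-only and 3.39% of stroma-only cells. In wildtype 2 it was 42 of 201 (20.9%), against 6.59% and 4.56%. At the depths of the dual-gate cells, nephron-only cells gave 2.89% in mutant 2 and 11.7% in wildtype 2, and stroma-only cells 5.62% and 23.1%, where the deep strata of stroma-only cells held as few as 11 and 5 cells. A pair of cells of the same sex does not show in this count, and in mutant 1 (0 of 40) and wildtype 1 (0 of 55) the libraries were nearly of 1 sex. Without the barcodes that held both, an alternative added after the data were seen, dual-gate cells were 20.3% and 18.3% of nephron-gate cells in the mutants and 9.11% and 10.8% in the wildtypes.

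Scrublet scores each barcode by its likeness to simulated doublets. Among the 5% of barcodes with the highest Scrublet score of their library were 20% and 18.7% of dual-gate cells in the mutants and 30.9% and 24.4% in the wildtypes. Nephron-only cells were there at 5.03% and 1.12% against 2.54% and 2.34%, and stroma-only cells at 2.65% and 5.25% against 3.47% and 3.15%. With these barcodes left out, the share of nephron-gate cells was 17.5% and 17.7% in the mutants and 6.61% and 9.93% in the wildtypes. Doublets and single cells with RNA of both lineages cannot be told apart for any one barcode in these data, so the class is called by its gates here.

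**Figure D3:**
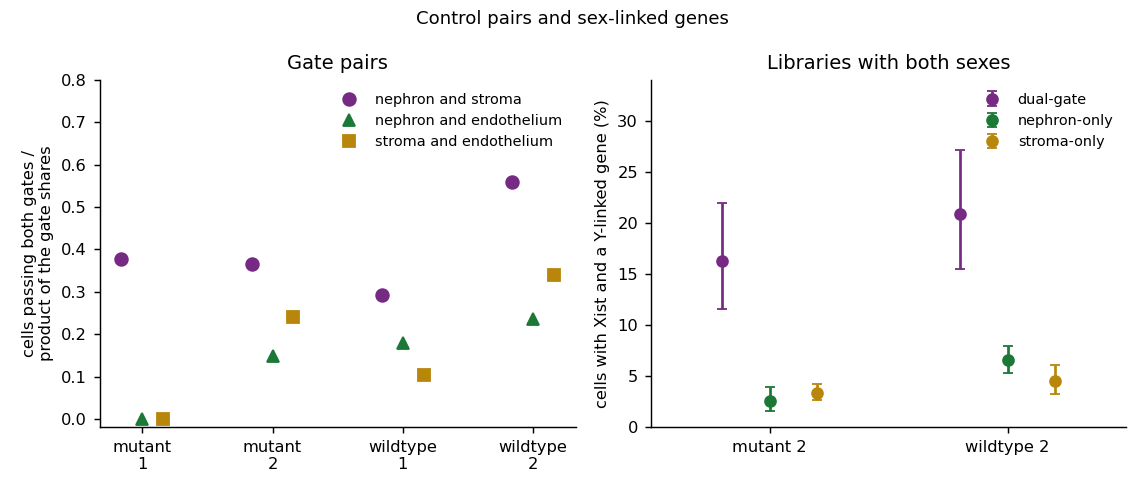
Left, cells passing both gates of a pair divided by the number that the product of the gate shares gives, for 3 pairs in each library; right, percentage of cells with Xist and a Y-linked gene by class in the libraries that held both sexes, with 95% Clopper-Pearson intervals. The nephron and stroma pair is the highest in every library, and dual-gate cells stand at 16.3% and 20.9% on the right.

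Genes of either lineage outside the gates were present too. In dual-gate cells, 85.0% and 83.7% of mutant and 94.5% and 93.5% of wildtype cells had at least 1 UMI of 47 further nephron genes and 1 of 20 further stromal genes. Nephron-only cells had both in 48.4% and 69.1% against 61.2% and 68.4%, and stroma-only cells in 53.0% and 68.1% against 71.9% and 71.0%. Thinned to 2000 UMIs, the dual-gate values were 56.8% and 63.4% in the mutants and 76.5% and 68.0% in the wildtypes, still above nephron-only cells at 27.6% and 41.9% against 31.1% and 37.9%. Stroma-only cells then had 42.6% and 56.2% against 61.9% and 55.4%.

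The stromal matrix list, which includes the fibrillar collagen Col1a1, summed to 819 and 980.2 CPM in mutant and to 609 and 531 CPM in wildtype dual-gate cells. It was at 2575 and 2748 CPM against 1619.7 and 1428 CPM in stroma-only cells, and at 36.6 and 55.3 CPM against 45.4 and 70.5 CPM in nephron-only cells. The early nephron list, with the Notch ligand Jag1 and the cyclin Ccnd1, summed to 650.2 and 910.2 CPM in mutant and to 1120.5 and 868 CPM in wildtype dual-gate cells, and to 1038 and 1689 CPM against 1337 and 1284 CPM in nephron-only cells. Both lists thus lay between the single-gate classes in each library.

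For 35 non-gate genes at least 4-fold higher in nephron-only than in stroma-only cells, the median dual-gate level lay at 43.8% and 60.8% of the way from the stroma-only to the nephron-only level in the mutants and at 43.3% and 77.4% in the wildtypes. For 94 genes on the stroma side, it lay at 39.4% and 33.3% of the way up to the stroma-only level in the mutants and at 33.0% and 29.0% in the wildtypes. One barcode of wildtype 2 with 325686 UMIs held 12.4% of the UMIs of its class, and without barcodes above 50000 UMIs the wildtype 2 values were 61.3% and 33.0%.

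Few genes stood above both single-gate classes. Of 2516 non-gate genes with at least 50 CPM in dual-gate cells of each library, 37 (1.47%) were above both classes in every library, 428 (17.0%) were between them and 27 were below both. Among the widest margins were those of the RNA helicase gene Ddx47, Mlf2, Far1 and the helicase Ddx42. Ddx47 gave 108 and 114 CPM in mutant and 112 and 106 CPM in wildtype dual-gate cells, and in no library was its margin over the higher single-gate class under 0.10 on the log2 scale. Isyna1, Prrc2b, Sfswap, Gtf2i and the hypoxia factor Hif1a followed, and the smallest margin of Hif1a was 0.06. The share of genes below both classes was 1.07%, close to the 1.47% above both. These margins were small and were not tested against counting error, so the ranking is a description.

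**Figure D4:**
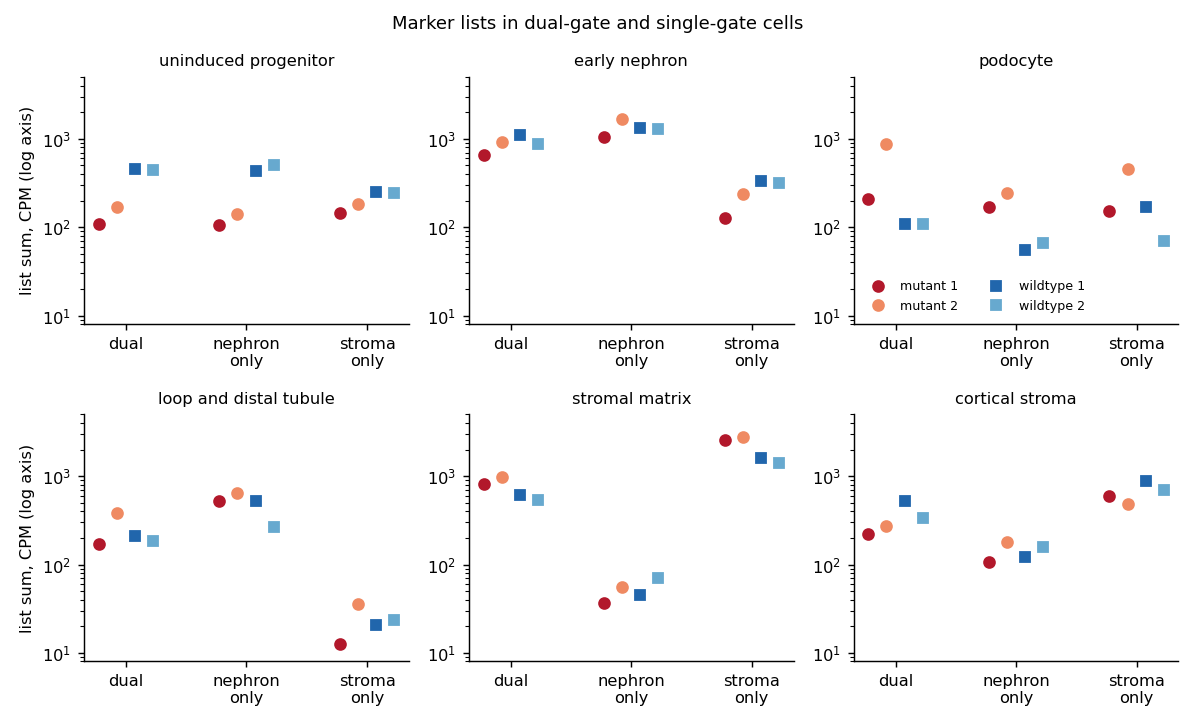
Summed CPM (log axis) of 6 marker lists in dual-gate, nephron-only and stroma-only cells of each library, with circles for mutant and squares for wildtype libraries. The early nephron, loop and distal tubule, stromal matrix and cortical stroma lists lie between the single-gate classes in dual-gate cells, while the podocyte list is highest in dual-gate cells of mutant 2 at 870.5 CPM.

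Podocytes, the filtering cells of the glomerulus, took a large part of the class in mutant 2. Their list, which includes the sialomucin gene Podxl, summed to 208 and 870.5 CPM in mutant and to 109 and 109 CPM in wildtype dual-gate cells. Nephron-only cells had 171 and 245 CPM against 55.8 and 65.9 CPM, and stroma-only cells 152 and 455 CPM against 170 and 69.3 CPM. At least 3 podocyte-list UMIs were found in 17.5% and 32.1% of dual-gate cells in the mutants and in 5.45% and 10.4% in the wildtypes.

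Seen from the podocyte side, the stroma gate was passed about as often as by all cells, except in wildtype 1. Barcodes with at least 5 podocyte-list UMIs numbered 32 and 371 in the mutants and 47 and 99 in the wildtypes. Of these, 53.1% and 55.0% passed the stroma gate in the mutants, against 53.2% and 22.2% in the wildtypes. All cells within the mitochondrial limit passed it at 53.3% and 56.4% against 30.9% and 22.3%. Only in wildtype 1 did the podocyte-marked barcodes stand above that share. Nephron-gate cells passed the stroma gate at 20.1% and 20.7% in the mutants and at 9.08% and 12.5% in the wildtypes. In each library that was below the share of the podocyte-marked barcodes. Both gates were passed by 6 and 57 of them in the mutants and by 3 and 14 in the wildtypes. Col1a2 stood at 639 and 1147 CPM in the podocyte-marked barcodes of the mutants and at 896 and 182 CPM in those of the wildtypes. Without barcodes of at least 3 podocyte-list UMIs, an alternative added after the data were seen, dual-gate cells were 18.9% and 17.2% of nephron-gate cells in the mutants and 8.97% and 11.8% in the wildtypes.

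Other stages of the nephron also gave dual-gate cells, with the exception of the proximal tubule list in mutant 1. Among nephron-gate cells with at least 3 UMIs of the early nephron list, 20.5% and 14.2% were dual-gate in the mutants and 8.10% and 13.7% in the wildtypes. For the uninduced progenitor list it was 41.2% (7 of 17) and 26.7% against 12.4% and 15.1%. The median depth of these progenitor-list cells was 15315 and 8842 UMIs in the mutants and 8578 and 8778.5 UMIs in the wildtypes. The shares by list were not standardised for depth. For loop and distal tubule genes the share was 9.80% and 12.5% against 5.45% and 11.5%. Ureteric bud genes, of the other epithelial lineage of the organ, gave 17.0% and 13.1% against 4.65% and 11.6%. Proximal tubule cells were at 0 of 17 and 9.17% in the mutants and at 6.25% and 10.0% in the wildtypes. The mutant libraries were above both wildtype libraries for the progenitor, early nephron, podocyte and ureteric bud lists, and overlapped them for the loop and proximal tubule lists.

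The genotypes were then compared within dual-gate cells, from counts summed per library, over 40 and 209 mutant and 55 and 201 wildtype cells. EdgeR's quasi-likelihood test called 5 of 9593 genes (0.0521%) at a Benjamini-Hochberg adjusted p under 0.05, 3 higher (0.0313%) and 2 lower (0.0208%) in the mutants, and 603 genes had an unadjusted p under 0.05. The libraries of the genotypes did not overlap for 3500 genes (36.5%). Without any genotype effect, 2 against 2 libraries separate with a probability of 0.333, so this share is close to chance. In nephron-only cells the same test called 41 of 12643 genes (0.324%; 0.111% higher and 0.214% lower). In stroma-only cells it called 20 of 11714 (0.171%; 0.0598% higher and 0.111% lower). DESeq2's Wald test called 15 genes in dual-gate cells, with 4 of the 5 among them. EdgeR called 14 genes without mutant 1, 27 without mutant 2, 107 without wildtype 1 and 91 without wildtype 2, with 4, 3, 4 and 5 of the 5 among them. In the single-gate classes leaving out a library gave 99 to 149 calls in nephron-only and 39 to 149 in stroma-only cells.

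Both genes that fell belong to uninduced nephron progenitors. Cited1, a transcriptional co-regulator (chromosome X, 102247381 to 102252181), gave 7.90 and 13.3 CPM in mutant and 133 and 119.6 CPM in wildtype dual-gate cells. The genotypes were far apart, at -3.54 on the log2 scale (SE 0.46, adjusted p = 0.00199 in edgeR), and the gene passed in each of 18 alternatives. Crym, a thyroid hormone-binding protein (chromosome 7, 120186380 to 120202111), gave 5.26 and 15.5 CPM against 68.5 and 81.2 CPM (-2.73, SE 0.48, adjusted p = 0.0387), and passed in 14 of 18 alternatives. It did not pass without mutant 1 (adjusted p = 0.132), the deepest 5% of barcodes (0.125), barcodes with Xist and a Y-linked gene (0.182) or podocyte-marked barcodes (0.172). In the single-gate classes Cited1 fell by 2.35 on the log2 scale in nephron-only and by 5.49 in stroma-only cells (adjusted p = 0.00619 and 3.09e-05), so the fall in dual-gate cells had its like in both.

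Of the 8 uninduced progenitor genes tested, 2 fell and 7 had a log2 fold change below 0, with a median of -2.42 against 0.02 over all 9593 genes. The list summed to 108 and 171 CPM in mutant and to 455 and 443 CPM in wildtype dual-gate cells. Six2, a transcription factor needed for progenitor self-renewal, gave 2.63 and 5.16 CPM against 24.6 and 22.4 CPM, and rested on 1 and 7 UMIs in the mutants.

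Among the genes that rose, Slc12a1, the salt cotransporter of the thick ascending limb (chromosome 2, 125152505 to 125230002), gave 23.7 and 82.5 CPM in mutant and 3.51 and 4.17 CPM in wildtype dual-gate cells (log2 fold change 3.70, SE 0.59, adjusted p = 0.0237). It rested on 9 and 112 UMIs against 2 and 11, and without mutant 2 it was at 2.63 (adjusted p = 0.997). It passed in 13 of 16 alternatives. In nephron-only cells it was at 86.0 and 98.1 CPM against 32.4 and 17.6 CPM (1.85, adjusted p = 0.0214). It is the one gene of the loop and distal tubule list to pass, of 5 tested.

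Pcp4, a calmodulin-binding peptide (chromosome 16, 96467606 to 96525793), gave 437 and 426 CPM in mutant and 61.5 and 98.7 CPM in wildtype dual-gate cells (log2 fold change 2.34, SE 0.39, adjusted p = 0.0237). Srgap1, a GTPase-activating protein of the Slit and Robo pathway (chromosome 10, 121780991 to 122047315), gave 73.7 and 149 CPM against 17.6 and 22.0 CPM (2.40, SE 0.43, adjusted p = 0.0387). Of the Pcp4 UMIs of dual-gate cells, 88.6% and 95.3% in the mutants and 77.1% and 73.1% in the wildtypes lay in barcodes with at least 3 podocyte-list UMIs, which held 21.1% and 29.2% of all dual-gate UMIs in the mutants and 4.62% and 11.7% in the wildtypes. For Srgap1 it was 71.4% and 78.8% against 60.0% and 43.1%. Without these barcodes neither passed, at log2 fold changes of 0.75 (adjusted p = 0.899) for Pcp4 and 1.57 (adjusted p = 0.553) for Srgap1. Srgap1 did not pass without mutant 2 (adjusted p = 0.216), nor Pcp4 without wildtype 1 (adjusted p = 0.0683), and each passed in 15 of 18 alternatives.

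**Figure D5:**
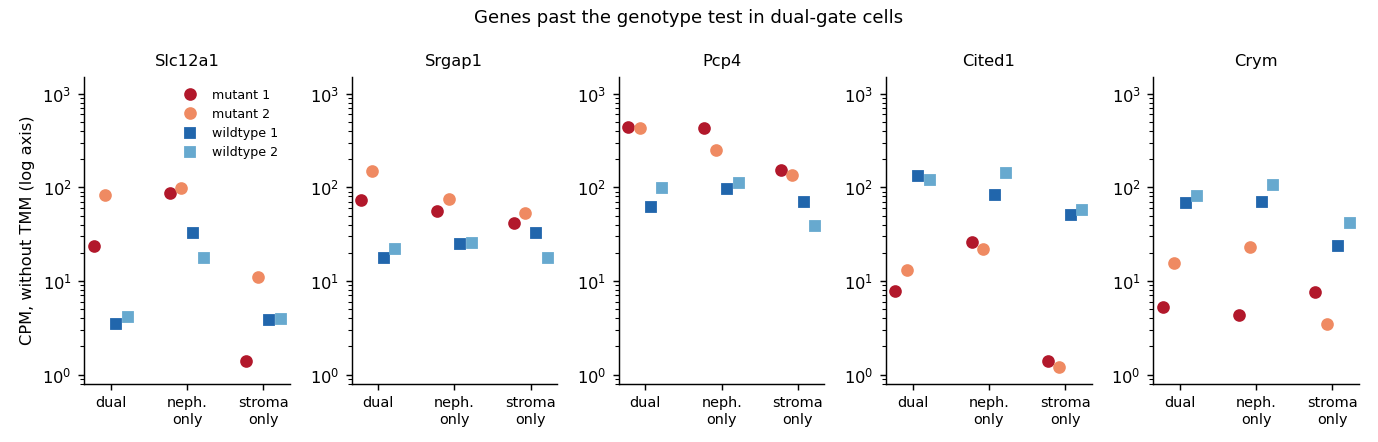
CPM without TMM scaling (log axis) of the 5 genes past the genotype test in dual-gate cells, shown in dual-gate, nephron-only and stroma-only cells of each library, with circles for mutant and squares for wildtype libraries. Cited1 and Crym lie lower in the mutants in all 3 classes, and Pcp4 and Srgap1 lie higher in the mutants in all 3.

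Counts of other list members past the test in dual-gate cells were 0, against 0.0521% of all genes, and their medians are given as a description. The 5 podocyte genes tested were all above 0, with a median log2 fold change of 2.39. Podxl, the podocyte sialomucin, gave 21.1 and 161 CPM in mutant and 15.8 and 8.73 CPM in wildtype dual-gate cells (adjusted p = 0.490 in edgeR). The 5 stroma-gate genes were above 0 with a median of 0.98, and 9 of 11 stromal matrix genes with a median of 0.92. Col1a1 gave 419 and 412 CPM against 248 and 289.97 CPM (adjusted p = 0.890).

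The 5 cortical stroma genes had a median of -1.52, with 4 below 0. Aldh1a2, which makes retinoic acid, gave 57.9 and 113 CPM in mutant and 293 and 191 CPM in wildtype dual-gate cells (adjusted p = 0.178), and fell by 2.16 on the log2 scale in stroma-only cells (adjusted p = 0.00957 in edgeR). Crabp1, a retinoic acid-binding protein, gave 121 and 112 CPM against 139 and 100.2 CPM. All 12 S phase genes were below 0, with a median of -0.82. Pcna, the replication clamp, gave 147 and 200.3 CPM against 519.8 and 331 CPM (adjusted p = 0.321). The 12 G2 and M phase genes were split evenly, with a median of -0.04, and the early nephron list had a median of 0.02.

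Genes listed as markers of cells outside both lineages were present, at levels that differed widely between lists and libraries. The macrophage list summed to 10.5 and 21.4 CPM in mutant and to 22.8 and 12.9 CPM in wildtype dual-gate cells. The neural and chromaffin list summed to 208 and 102 CPM against 22.8 and 33.8 CPM. In stroma-only cells it summed to 543 and 235 CPM against 34.2 and 36.6 CPM. At least 1 UMI of it was found in 33.3% and 30.0% of mutant and in 8.58% and 9.87% of wildtype stroma-only cells. Its neurofilament gene Nefm gave 168 and 32.4 CPM in mutant dual-gate cells and 0 and 5.31 CPM in wildtype ones (edgeR adjusted p = 0.695). In stroma-only cells Nefm was higher in the mutants, at 3.74 on the log2 scale (edgeR adjusted p = 0.0015). The erythroid list was at 224 and 663 CPM in the mutants and at 102 and 5404 CPM in the wildtypes, and wildtype 2 stood apart with 92.5% of its dual-gate cells holding at least 2 such UMIs and 88.7% of its nephron-only cells. The cells that this RNA came from, and its part in the results above, were not tested.

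The targeted genes were read in the class as well. Hoxa9 gave 132 and 198 CPM in mutant and 156 and 110.4 CPM in wildtype dual-gate cells, Hoxa10 86.9 and 141 CPM against 227 and 169 CPM, and Hoxa11 13.2 and 47.9 CPM against 15.8 and 61.9 CPM. Hoxd9 gave 65.8 and 48.6 CPM against 24.6 and 56.2 CPM, Hoxd10 89.5 and 103 CPM against 38.6 and 44.4 CPM, and Hoxd11 153 and 220.2 CPM against 82.5 and 58.4 CPM. None passed, with the lowest adjusted p at Hoxd11 (0.237 in edgeR). A 3' tag can lie outside the altered part of a gene, so these levels check no genotype.

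Last, it was tested whether the genotype effect in dual-gate cells differed from that in single-gate cells, in one edgeR fit with library as a block. Against nephron-only cells, 7 of 12184 genes differed (0.0575%), 6 with a higher (0.0492%) and 1 with a lower effect (0.00821%) in dual-gate cells, and DESeq2 called 3. Without mutant 1, mutant 2, wildtype 1 and wildtype 2 the count was 20, 26, 27 and 11. Against stroma-only cells, 38 of 11753 differed (0.323%), 31 higher (0.264%) and 7 lower (0.0596%), DESeq2 called 3, and 14 differed without mutant 2. The gates set the stromal and nephron RNA of these classes, so genes of either lineage are not independent of them. In the edgeR fit against stroma-only cells, p-values were close to those of a normal test of the estimate over its SE. The spread between libraries was thus in effect shared over genes there, and these small p-values do not measure each gene's own spread.

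Rspo3, a secreted Wnt enhancer (chromosome 10, 29452416 to 29535867), gave 34.2 and 42.7 CPM in mutant and 38.6 and 34.2 CPM in wildtype dual-gate cells, which overlapped. In nephron-only cells it gave 4.30 and 4.88 CPM against 27.6 and 33.9 CPM, a difference of effects of 2.87 on the log2 scale (SE 0.42, adjusted p = 0.00975). Shisa3 gave 150.04 and 203 CPM against 188 and 186 CPM in dual-gate cells, and 16.1 and 24.8 CPM against 67.2 and 94.6 CPM in nephron-only cells (1.84, SE 0.25, adjusted p = 0.00975). Cdh11, the cadherin of mesenchyme, gave 284 and 319 CPM against 235 and 238 CPM, and 54.9 and 67.4 CPM against 125 and 122 CPM (1.29, SE 0.19, adjusted p = 0.00975). Each was lower in both mutant than in both wildtype libraries among nephron-only cells, and did not pass the test in dual-gate cells. In stroma-only cells Rspo3 gave 79.0 and 105.5 CPM against 49.7 and 39.6 CPM, and Shisa3 315 and 466 CPM against 404 and 374 CPM. Cdh11 gave 589 and 855 CPM against 570 and 498 CPM there. The dual-gate level of each thus lay between the single-gate classes in every library. With DESeq2, the difference for Rspo3 did not pass (adjusted p = 0.0763). Rspo3 did not pass without mutant 2 (adjusted p = 0.158) or without wildtype 2 (adjusted p = 0.161), nor did Shisa3 (adjusted p = 0.174) or Cdh11 (adjusted p = 0.161) without wildtype 2.

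Against stroma-only cells, Uncx, a homeobox factor, gave 145 and 153 CPM in mutant and 89.6 and 164 CPM in wildtype dual-gate cells, which overlapped. Nephron-only cells gave 76.4 and 245 CPM of it against 125 and 202 CPM. In stroma-only cells it gave 1.40 and 9.13 CPM against 19.8 and 30.8 CPM (difference of effects 1.95, SE 0.30, edgeR adjusted p = 4.07e-07). The difference passed in 6 of 7 alternatives, and not with DESeq2 (adjusted p = 0.999965). Hmga2, a chromatin protein of growing embryonic tissue, gave 163 and 178 CPM against 304 and 237 CPM in dual-gate cells, and 359 and 298 CPM against 242 and 225 CPM in stroma-only cells (-1.14, SE 0.18, adjusted p = 7.26e-07). Hmga2 was lower in mutant dual-gate and nephron-only cells and higher in mutant stroma-only cells, and its difference passed in each of 7 alternatives.

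Malat1, a long nuclear RNA, was looked at after its values were seen, and its differences of effect did not pass without mutant 1 or without mutant 2. It gave 7384 and 9662 CPM in mutant and 2388 and 2057 CPM in wildtype dual-gate cells, 3533 and 4666 CPM against 2103 and 1603 CPM in nephron-only cells, and 4852 and 7392 CPM against 3012 and 2172 CPM in stroma-only cells. Dual-gate cells were the highest of the 3 classes in both mutant libraries, and lay between the others in the wildtypes. The median mitochondrial share of dual-gate cells was 3.31% and 5.06% in the mutants and 3.26% and 2.62% in the wildtypes. The part of RNA quality in the dual-gate results was not tested.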

How the data were processed

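Drop-seq libraries of E14.5 mouse kidneys, 2 mutant and 2 wildtype, were analysed from counts of UMIs per gene and barcode as deposited by the authors. Reads were aligned with Bowtie2 2.2.7 to mm10, per the submitters' processing notes; the annotation and the rule for collapsing UMIs are not given in the sources used here. Total depth per library ran from 3572346 to 24834658 UMIs. Gene positions are from the GENCODE annotation of mm10.

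Barcodes with mitochondrial genes above 10% of UMIs were left out, and no doublet was removed in the results as first given. Counts of each gate class were summed per library. Genotypes were compared with edgeR 4.0.16 (TMM, filterByExpr, robust quasi-likelihood fits) and Benjamini-Hochberg adjustment at 0.05 over all genes tested. Numbers of cells in the 8 gate combinations were tested with edgeR's quasi-likelihood test. Library size was then the number of barcodes within the mitochondrial limit, with no other normalization, and the adjustment ran over the 8 combinations. Differences of genotype effects between classes were tested with library as a block. Shares were compared with exact permutation tests over libraries. DESeq2 1.42.0, R 4.3.3, scanpy 1.11.5 (Scrublet) and Python 3.11.15 were used, and the fits were tested on simulated data. CPM in the text are counts per 1e6 UMIs of a class without TMM scaling, and log2 fold changes are those of the fits. Genes named were the gate and targeted genes, genes past a test (up to 10 in each direction at 20 CPM or more with no overlap of genotypes; up to 5 in each direction for differences between classes), up to 4 called or the 2 most abundant members of 26 lists, and the 10 genes highest above both single-gate classes; the text prints part of these. Six2 and Malat1 were named after their values were seen. Members and lists were chosen with earlier results of these data known. Alternatives were gate size, thinning, cell filters, doublet and depth filters, scaling, tool, a replicate block and leaving out each library. Those on barcodes above 50000 UMIs, undetermined bases, Xist with Y-linked genes, podocyte genes, depth strata and crossed replicate numbers were added after seeing the data. Some genes that the naming rule covers are not reported here.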

Additional observations from a re-analysis of the deposited data

Results flagged for a closer look

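The effect of genotype, mutant over wildtype, differed between dual-gate and nephron-only cells in edgeR's test of the difference. The differences on the log2 scale were 2.96 for Bmper, 2.87 for Rspo3, 2.48 for Cped1, 1.84 for Shisa3, 1.29 for Cdh11, 0.72 for Malat1 and -5.04 for Car3. Cped1 gave 73.7 and 73.6 CPM in mutant and 77.3 and 61.9 CPM in wildtype dual-gate cells, and 3.23 and 11.9 CPM against 72.3 and 40.1 CPM in nephron-only cells. It passed in each of 7 alternatives. Shisa3 and Cdh11 passed in 6, and Rspo3 in 4. Car3 passed in 6, ranged from -7.49 to -4.01 without each library and did not pass with DESeq2 (adjusted p = 0.238). Malat1 passed in 4 of 7, and not without mutant 1 (edgeR adjusted p = 0.383) or mutant 2 (0.321). Bmper, which binds BMPs, passed in 4 of 7, and not without mutant 2 or without wildtype 2. With DESeq2, Bmper (adjusted p = 0.133), Rspo3 (0.0763) and Malat1 (0.0763) did not pass either. Bmper gave 44.7 and 36.1 CPM in mutant and 12.3 and 20.1 CPM in wildtype dual-gate cells. Stroma-only cells gave 69.2 and 52.4 CPM of it against 35.2 and 22.5 CPM. Car3 gave only 2.63 and 6.63 CPM in mutant and 349 and 78.2 CPM in wildtype dual-gate cells. Stroma-only cells gave 40.6 and 82.6 CPM of it against 208 and 178 CPM. Both genes thus went the same way in stroma-only as in dual-gate cells.

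Against stroma-only cells the differences were 2.94 for Fbxo32, 2.91 for Slc12a1, 1.95 for Uncx, 1.84 for Slco3a1, 1.84 for Hspa12a and 0.61 for Malat1. They were -4.87 for Phf19, -2.02 for Spon1, -1.63 for C1qtnf2, -1.21 for Tpm2 and -1.14 for Hmga2. Phf19 gave only 0 and 0.736 CPM in mutant dual-gate cells, and Fbxo32 only 0 and 3.04 CPM in wildtype ones. Spon1 gave 15.8 and 30.2 CPM in mutant and 12.3 and 14.8 CPM in wildtype dual-gate cells. In stroma-only cells Spon1 gave 38.5 and 37.1 CPM against 7.71 and 4.16 CPM. Hmga2 passed in each of 7 alternatives, Uncx in 6, Tpm2 and Malat1 in 5, Hspa12a and Phf19 in 4, Fbxo32, Slc12a1 and Spon1 in 3, Slco3a1 in 2 and C1qtnf2 in 1. With DESeq2, of these 11 genes only Hmga2 and Malat1 passed. Leaving out each library gave 2.65 to 8.07 for Fbxo32, 0.86 to 2.15 for Slco3a1, -2.77 to -1.33 for Spon1 and -2.49 to -1.45 for C1qtnf2.

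Barcodes over the mitochondrial limit, which entered no comparison, also held dual-gate barcodes. They were 14 of 208 (6.73%) in mutant 1 and 118 of 1871 (6.31%) in mutant 2, against 6 of 164 (3.66%) in wildtype 1 and 6 of 502 (1.20%) in wildtype 2. Their median depth was 1089.5 and 1301 UMIs in the mutants and 1005.5 and 922 UMIs in the wildtypes.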

How the results depend on the processing

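The mutant share of nephron-gate cells that were dual-gate was the higher one in each of 17 alternatives, by 4.14 to 11.3 percentage points. Leaving out each library gave 7.93 to 11.3 points. For the share of stroma-gate cells the difference was 0.0754 points at 1000 UMIs (exact permutation p = 1), where the direction turned, and -9.44 to -0.659 points without each library. The log2 change in the number of dual-gate cells was 0.21 to 0.71 without each library, 0.17 with stricter gates, 1.78 at 1000 UMIs (edgeR adjusted p = 0.113) and 1.15 at 2000 UMIs, the one alternative in which it passed edgeR's test (adjusted p = 0.0214).

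Genes called in dual-gate cells numbered 53 with no filter on low counts, 15 with DESeq2, 28 with stricter gates, 9 without the mitochondrial limit, 9 without high Scrublet scores, 14 without the 5% deepest barcodes, 15 without barcodes above 50000 UMIs, 2 without barcodes with Xist and Y-linked genes, 2 without podocyte-marked barcodes, and 14 to 107 without each library. With no filter, nephron-only cells had 86 calls, stroma-only cells 117 and the difference from nephron-only cells 28. DESeq2 gave 34 in stroma-only cells and 3 for each difference. Leaving out each library gave 99 to 149 in nephron-only and 39 to 149 in stroma-only cells, and 11 to 27 and 14 to 39 for the differences. Without barcodes above 50000 UMIs the difference from nephron-only cells had 17. The causes were not tested.

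The labels do not say whether replicate numbers pair the libraries. Replicate differences of the mutants and of the wildtypes correlated at -0.0933 in dual-gate, -0.0665 in nephron-only and -0.106 in stroma-only cells. Mutant 1 and wildtype 1 were of opposite sex, so these values cannot tell whether replicates shared a day or batch. With a replicate block, calls numbered 46, 91 and 111 in these classes, against 5, 41 and 20 without it. The log2 change in dual-gate cell number with the block was 0.44 (edgeR adjusted p = 0.715). With the numbers crossed, stroma-only cells had 21 calls.

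With 2 libraries per genotype no exact test can pass, a lone library left by an omission is assumed to vary like the other genotype, and 40 and 55 dual-gate cells limit mutant 1 and wildtype 1.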
